A study of Homo sapiens with 3 samples.

Results

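NFE2L2 encodes NRF2, the transcription factor that switches on antioxidant genes, and KEAP1 encodes the protein that holds NRF2 in check. Their transcripts were examined together with those of 7 target genes, GCLC, GCLM, NQO1, TXNRD1, SRXN1, HMOX1 and SLC7A11. The 9 genes were chosen by symbol, through their Ensembl identifiers, among 19869 genes in an RNA sequencing table of Hep3B, a line of human hepatocellular carcinoma cells. All 9 had a mean of at least 1 FPKM (sequenced fragments divided by transcript length and library size), the level above which a gene is called measured here, as did 10974 genes in all. Each of 3 groups held 1 library. One came from cells transfected with a pcDNA3.1 plasmid encoding HKR3, an older name of the zinc finger protein ZBTB48, and another from cells transfected with siTERT, a small interfering RNA named for TERT, the catalytic subunit of telomerase. The control is titled NT-Empty with Fugene as its treatment, and no source used here says which nucleic acid, if any, it received, or whether the HKR3 and siTERT cells each received both a plasmid and an siRNA. Fugene HD was the transfection reagent throughout.

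In unstressed cells KEAP1 binds NRF2 and presents it to a CUL3 ubiquitin ligase, so that NRF2 protein is made and degraded continuously. Oxidants and electrophiles modify cysteines of KEAP1, NRF2 escapes, enters the nucleus, pairs with a small MAF protein and binds antioxidant response elements. Its targets build glutathione, reduce thioredoxin and peroxiredoxins, degrade heme and detoxify quinones. The pathway is prominent in the liver, an organ of xenobiotic metabolism, and is often activated in hepatocellular carcinoma. Because control of NRF2 is largely exerted on the protein, transcript levels of NFE2L2 do not measure NRF2 activity.

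The core of the antioxidant response element, TGACNNNGC, was searched on both strands in RefSeq promoter windows, which run from 250 bases before to 50 bases after an annotated start (GRCh38.p14). Windows were held for 7 members, with 10 starts in all, and those of GCLM, KEAP1 and TXNRD1 had a match. The share was 4 of 10 windows, against 13.3% of 35116 windows of the same length over all genes and 14.6% for measured genes. Counted by gene it was 3 of 7, against 19.7% of measured genes with windows. None of the 10 windows held the AP-1 motif TGANTCA, which can overlap the core and was found in 7.71% of all windows. HMOX1 and SLC7A11 were not analysed in this way. The 6 matches are shown because they are the only places in these windows where the letters of the element occur. Each line runs 5′ to 3′ on the strand that reads the motif, with the motif in capitals.

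GCLM, chr1:93909446-93909474, plus strand: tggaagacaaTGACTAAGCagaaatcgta
KEAP1, chr19:10502784-10502812, plus strand: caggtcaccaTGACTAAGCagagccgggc
KEAP1, chr19:10502807-10502835, minus strand: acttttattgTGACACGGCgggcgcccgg
TXNRD1, chr12:104286920-104286948, minus strand: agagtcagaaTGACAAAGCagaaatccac
TXNRD1, chr12:104215670-104215698, plus strand: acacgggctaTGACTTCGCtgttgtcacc
TXNRD1, chr12:104215761-104215789, minus strand: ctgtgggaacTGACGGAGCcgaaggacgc

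The motifs of GCLM and of the first KEAP1 line have the same 9 letters. They lie at bases -34 to -26 and -31 to -23 from their starts, where negative positions are upstream. The 250 bases before the start of GCLC are shown as well, since GCLC had the largest difference of the 9 genes and this window held no match. Elements outside these windows were not searched.

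GCLC, chr6:53545102-53545351, minus strand: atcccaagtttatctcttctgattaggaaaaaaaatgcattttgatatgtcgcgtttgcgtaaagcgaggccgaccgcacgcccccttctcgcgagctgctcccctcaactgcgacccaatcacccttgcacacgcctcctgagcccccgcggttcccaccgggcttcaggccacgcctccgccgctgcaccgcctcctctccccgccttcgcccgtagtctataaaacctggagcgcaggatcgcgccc

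The targeted genes and cell markers bear on all that follows. ZBTB48 was at 2842 FPKM in the HKR3 library, 4.89 FPKM in the library labelled siTERT, and 4.91 FPKM in the control. TERT was at 4.25, 5.37 and 4.69 FPKM in the same order, so it was not reduced where siTERT was the label, and that library is called siTERT-labelled below, or the library labelled siTERT. All 10 hepatocyte and hepatoma markers were measured, and their FPKM summed to 9808 in the HKR3 library, 13736 in the siTERT-labelled library and 14242 in the control. Of 8 leukocyte markers 3 were measured, CD14, CD68 and LYZ, and the 8 summed to 243, 441 and 431 FPKM, while PTPRC, CD3E, CSF1R and MS4A1 were listed at 0. None of the 3 endothelial and 6 stromal markers in the table was measured, and of 3 cholangiocyte markers EPCAM and KRT19 were. The sums included ALB at 2703 FPKM and AFP at 2831 FPKM in the HKR3 library, against 3317 and 4055 FPKM in the control. Genes at high levels in general were mostly lower in the HKR3 library, as given below. Lower hepatocyte marker levels in the HKR3 library stand beside every difference given below, and their part in those differences was not tested. In bulk RNA of 1 cell line, fewer cells expressing a gene and less RNA per cell cannot be told apart.

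With 1 library per group there was no replicate spread to set a difference against. Differences are given in log2(FPKM + 1), which understates those of low genes, and 2-fold on that scale serves as a rule of size in place of a test. Ratios of FPKM carry a 95% counting interval, an exact binomial interval on fragment numbers estimated from low values. That estimate is rough, and the interval covers counting error only and says nothing of how far repeated cultures would differ.

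In the HKR3 library 3 of the 9 genes were at least 2-fold higher than in the control, GCLC, SRXN1 and TXNRD1, and none was at least 2-fold lower. Of all 10974 measured genes, 5.52% were higher by that much and 2.52% lower. The median log2 difference of the 9 members was 0.84, and 7 of them lay above 0, against a median of -0.02 over all measured genes and 48.6% above 0. NQO1 and SLC7A11 were the members below the control. None of the 9 genes was 2-fold apart from the control in the siTERT-labelled library, in which TERT was not lower, at a background of 0.282% higher and 0.2% lower. There all 9 differences lay above 0, as did 47.4% of all measured genes, and the median was 0.25 against -0.01 over all measured genes. The differences of KEAP1, HMOX1, NQO1 and GCLM there were at most 0.05 and within counting error. Both comparisons use the same control library, so a low or high control value moves both alike.

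**Figure D1:**
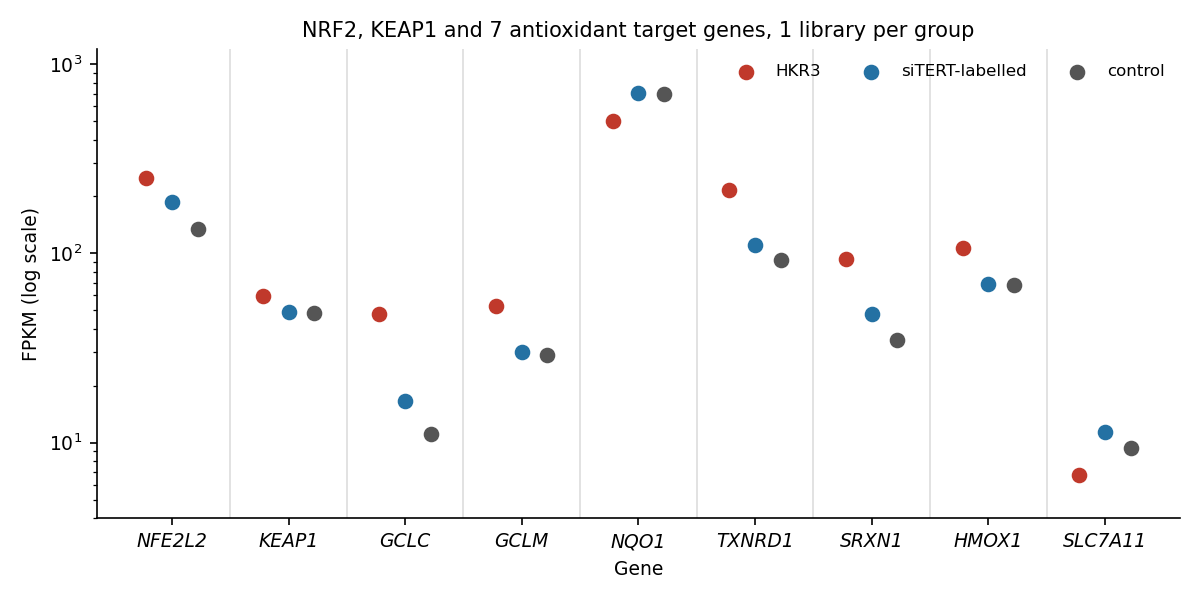
FPKM (log axis) of the 9 genes in the HKR3, siTERT-labelled and control libraries, 1 point per library. GCLC has the widest gap, 47.7 FPKM in the HKR3 library against 11.1 FPKM in the control, while NQO1 and SLC7A11 are lowest in the HKR3 library.

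NFE2L2, the gene of NRF2 itself, was at 249 FPKM in the HKR3 library, 187 FPKM in the siTERT-labelled library and 135 FPKM in the control. It was highest in the HKR3 library and lowest in the control. Its ratio to the control was 1.84 in the HKR3 library, with a counting interval from 1.67 to 2.03, and 1.38 in the siTERT-labelled library, from 1.25 to 1.53. The log2 difference of 0.88 in the HKR3 library stayed short of 2-fold, and became 1.03 after every library was scaled to the same sum (the TPM scale below). Its level was high in every library. At most 3.45% of all genes in the table, the share in the control, reached it.

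KEAP1, the adaptor through which NRF2 is ubiquitinated, was at 59.5 FPKM in the HKR3 library, 48.9 FPKM in the siTERT-labelled library and 48.6 FPKM in the control. The last 2 values were close, and the HKR3 value lay above them. The ratio of the HKR3 library to the control was 1.22, from 1.08 to 1.38, a log2 difference of 0.29. For the siTERT-labelled library the ratio was 1.01, from 0.887 to 1.14, so that no difference was detectable at this depth.

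Because FPKM is scaled by transcript length, levels of different genes can be compared within a library, and such ratios do not depend on how libraries are scaled to each other. NFE2L2 stood at 4.19 times the FPKM of KEAP1 in the HKR3 library, 3.82 times in the siTERT-labelled library and 2.79 times in the control. This ratio of levels was lowest in the control.

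Glutamate-cysteine ligase carries out the step that limits glutathione synthesis, and is made of the catalytic subunit GCLC and the modifier subunit GCLM, which raises its efficiency. GCLC was at 47.7 FPKM in the HKR3 library, 16.6 FPKM in the siTERT-labelled library and 11.1 FPKM in the control. The HKR3 value stood well apart from the other libraries. The log2 difference from the control was 2.01 in the HKR3 library, a ratio of 4.30 with a counting interval from 3.30 to 5.71, and only 0.738% of measured genes had a difference as large or larger. For the siTERT-labelled library it was 0.54, a ratio of 1.49 from 1.09 to 2.05.

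GCLM was at 52.7 FPKM in the HKR3 library, 30.1 FPKM in the siTERT-labelled library and 29.1 FPKM in the control. Only the HKR3 library differed beyond counting error, with a ratio of 1.81, from 1.67 to 1.97, and a log2 difference of 0.84. The ratio of the library labelled siTERT to the control was 1.04, from 0.945 to 1.13. The subunits therefore stood in unequal proportion between libraries. GCLC was at 0.905 times the FPKM of GCLM in the HKR3 library, 0.550 times in the siTERT-labelled library and 0.382 times in the control.

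SLC7A11 is the light chain of the cystine-glutamate exchanger that brings in the cystine used for glutathione. It was at 6.78 FPKM in the HKR3 library, 11.3 FPKM in the siTERT-labelled library and 9.41 FPKM in the control. It had the lowest level of the 9 genes in every library, and its order among libraries was unlike that of GCLC, with the HKR3 library lowest. The ratio to the control was 0.720 in the HKR3 library, from 0.652 to 0.796, a log2 difference of -0.42. It was 1.21 in the library labelled siTERT, from 1.11 to 1.31, a log2 difference of 0.25. SLC3A2, the heavy chain that SLC7A11 pairs with, was at 304 FPKM in the HKR3 library, 198 FPKM in the siTERT-labelled library and 194 FPKM in the control, with a log2 difference of 0.65 in the HKR3 library. The FPKM of SLC7A11 was 0.0223 times that of SLC3A2 in the HKR3 library, 0.0574 times in the siTERT-labelled library and 0.0485 times in the control.

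TXNRD1, the cytosolic selenoprotein that reduces thioredoxin with NADPH, was at 217 FPKM in the HKR3 library, 111 FPKM in the siTERT-labelled library and 92.1 FPKM in the control. The HKR3 library was the high one, and the other libraries were near each other. The log2 difference was 1.23 in the HKR3 library, a ratio of 2.36 from 2.09 to 2.66. It was 0.26 in the library labelled siTERT, a ratio of 1.20 from 1.05 to 1.38. Its substrate thioredoxin, TXN, was at 349 FPKM in the HKR3 library, 458 FPKM in the siTERT-labelled library and 508 FPKM in the control. The enzyme to substrate ratio of FPKM was 0.622 in the HKR3 library, 0.242 in the siTERT-labelled library and 0.181 in the control.

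SRXN1, sulfiredoxin, restores peroxiredoxins whose catalytic cysteine has been overoxidised. It was at 93.2 FPKM in the HKR3 library, 47.8 FPKM in the siTERT-labelled library and 34.8 FPKM in the control. All 3 libraries differed beyond counting error, with the control lowest. The log2 difference from the control was 1.40 in the HKR3 library, a ratio of 2.68 from 2.49 to 2.89. Its value in the siTERT-labelled library was 0.45, a ratio of 1.37 from 1.26 to 1.49. An overlapping coding gene on the same strand holds 84.9% of the sequence of SRXN1 in units of 31 bases. That gene is listed below 0.0001 FPKM in every library, but reads of shared sequence cannot be told apart, so the split is uncertain. The FPKM of SRXN1 was 0.102 times that of PRDX1, a peroxiredoxin it repairs, in the HKR3 library, 0.0363 times in the siTERT-labelled library and 0.0240 times in the control.

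NQO1, a quinone reductase and a widely used readout of NRF2, was at 503 FPKM in the HKR3 library, 701 FPKM in the siTERT-labelled library and 695 FPKM in the control. It was the highest of the 9 genes in each library, among the top 0.750%, 0.644% and 0.700% of all genes in that order. The ratio of the HKR3 library to the control was 0.725, from 0.698 to 0.752, and the log2 difference was -0.46. Genes at that height were mostly lower in the HKR3 library. The 190 measured genes within 2-fold of the mean level of NQO1 had a median log2 difference of -0.35, which leaves -0.11 for NQO1 beyond it. The siTERT-labelled library had a ratio of 1.01, from 0.974 to 1.04, so no difference was detectable there.

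HMOX1 is the inducible heme oxygenase, which is also induced by heme when the repressor BACH1 leaves its promoter. It was at 107 FPKM in the HKR3 library, 68.8 FPKM in the siTERT-labelled library and 68.3 FPKM in the control. The last 2 libraries did not differ beyond counting error, with a ratio of 1.01 from 0.903 to 1.12. The HKR3 library was higher, with a ratio of 1.57 from 1.42 to 1.73 and a log2 difference of 0.64. HMOX2, the constitutive enzyme, was at 3.99 FPKM in the HKR3 library, 8.56 FPKM in the siTERT-labelled library and 10.3 FPKM in the control, a log2 difference of -1.18 in the HKR3 library.

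**Figure D2:**
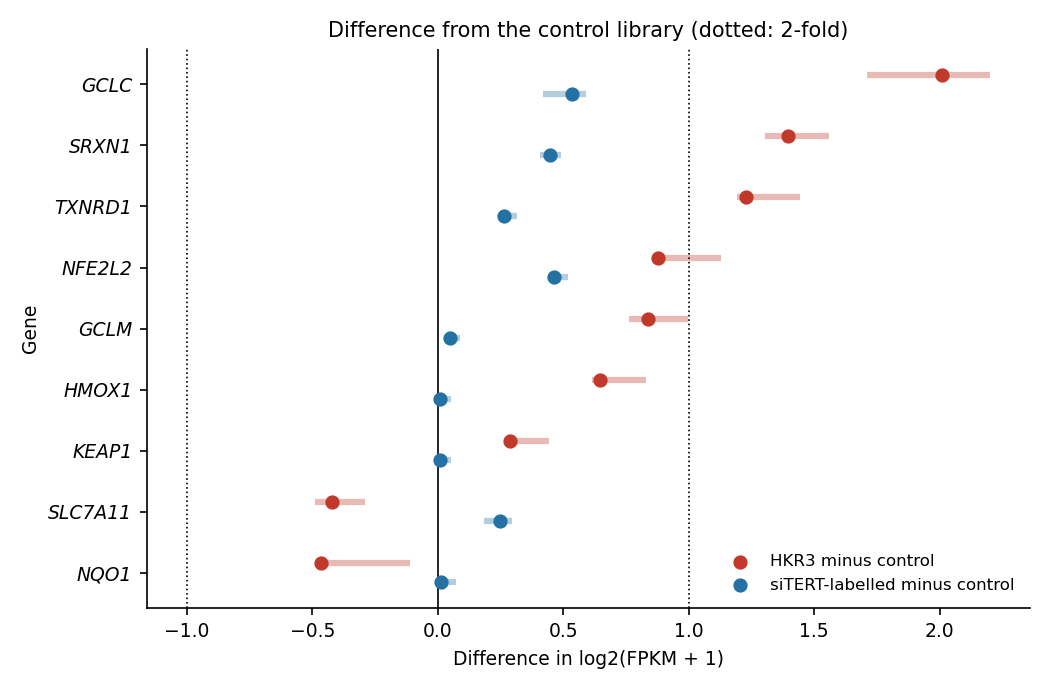
Difference in log2(FPKM + 1) from the control for the 9 genes, HKR3 above siTERT-labelled within each gene. Points are the values as reported, bars span the same value under 7 other settings of pseudocount, scaling, filter and level, and dotted lines mark 2-fold. GCLC, SRXN1 and TXNRD1 stay past 2-fold throughout, and the bar of NFE2L2 crosses it.

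The order of the 9 levels was nearly fixed. It ran, both for the siTERT-labelled library and for the control, NQO1, NFE2L2, TXNRD1, HMOX1, KEAP1, SRXN1, GCLM, GCLC and SLC7A11. In the HKR3 library SRXN1 stood above KEAP1, and the other places were the same. Neighbours there were close in places, such as GCLM at 52.7 and GCLC at 47.7 FPKM, and no replicate spread is at hand to tell them apart. The 9 genes together took 0.250% of the FPKM sum of the HKR3 library, 0.211% in the siTERT-labelled library and 0.188% in the control.

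Level mattered for how these differences compare with other genes. In the HKR3 library the median log2 difference was 0.07 for genes with a mean between 1 and 3 FPKM, and -0.33 for genes of at least 300 FPKM. With the median of genes within 2-fold of its own level subtracted, NFE2L2 had a difference of 1.13, GCLC 2.04, SRXN1 1.54 and TXNRD1 1.44. GCLM had 0.92, HMOX1 0.83, KEAP1 0.41 and SLC7A11 -0.49. This adjustment was chosen after the values were seen. On the TPM scale the median over all measured genes was 0.12 in place of -0.02, and 991 genes were at least 2-fold higher and 208 lower, in place of 606 and 277, so that 82.7% of these genes were higher in place of 68.6%. The members past 2-fold on that scale were NFE2L2, GCLC, TXNRD1 and SRXN1, and GCLM lay just under it.

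**Figure D3:**
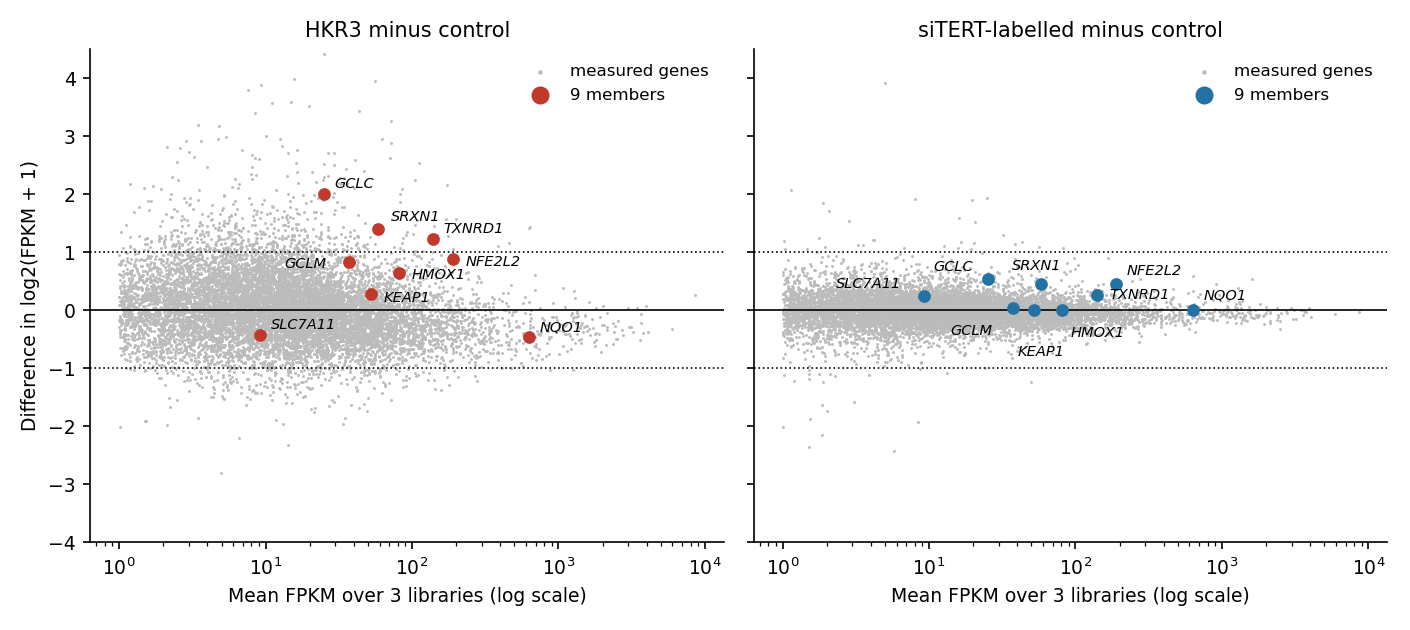
Difference in log2(FPKM + 1) from the control against mean FPKM over 3 libraries (log axis), for measured genes (grey) and the 9 members (coloured), with the HKR3 library on the left and the library labelled siTERT on the right. Grey points drift below 0 at high levels on the left, where GCLC is at 2.01 and NQO1 at -0.46. ZBTB48 lies above the left panel's range.

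The HKR3 library was also set against the library labelled siTERT, which leaves the control out. GCLC was the single member at least 2-fold higher, with a log2 difference of 1.47, and none was 2-fold lower, at a background of 4.11% higher and 1.38% lower. TXNRD1 and SRXN1 had log2 differences of 0.96 and 0.95 and stayed short of 2-fold. They passed it on the TPM scale, at 1.08 and 1.07, and with the median at their level subtracted, at 1.14 and 1.05. GCLM was at 0.79, HMOX1 at 0.63, NFE2L2 at 0.41 and KEAP1 at 0.28. NQO1 was at -0.48 and SLC7A11 at -0.67, the lowest of the 9. The median of the members was 0.63, against -0.01 over all measured genes.

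Several partners and regulators of NRF2 were higher in the HKR3 library. Of 17 measured genes in that list, 6 were at least 2-fold higher in the HKR3 library and none was 2-fold lower, against 5.52% and 2.52% of all measured genes. The median log2 difference was 0.17. On the TPM scale 7 were higher, where 991 of all 10974 measured genes were. The added gene was CREBBP, a coactivator of NRF2 named after its values were seen, at 1.11 in place of 0.92. Transcripts of the 3 small MAF proteins, the obligate partners of NRF2 on DNA, were among the 6. MAFF was at 53.2 FPKM in the HKR3 library, 13.9 FPKM in the siTERT-labelled library and 8.47 FPKM in the control. MAFK was at 35.1 FPKM in the HKR3 library, 7.64 FPKM in the siTERT-labelled library and 6.85 FPKM in the control. MAFG was at 28.9, 6.99 and 6.48 FPKM in the same order. The HKR3 library stood apart for each of these genes. These genes also serve as partners of BACH1, the repressor at antioxidant response elements. BACH1, named outside the rule after its values were seen, was at 15.9 FPKM in the HKR3 library, 7.96 FPKM in the siTERT-labelled library and 6.69 FPKM in the control. NFE2L2 was at 15.7 times the FPKM of BACH1 in the HKR3 library, 23.5 times in the siTERT-labelled library and 20.2 times in the control, so the ratio was lowest in the HKR3 library.

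SQSTM1 encodes p62, an autophagy receptor that binds KEAP1. It was at 1037 FPKM in the HKR3 library, 482 FPKM in the siTERT-labelled library and 385 FPKM in the control, a log2 difference of 1.43 in the HKR3 library. EP300, a coactivator of NRF2, had a difference of 1.18 in the HKR3 library. Of the 17 genes, 0 were 2-fold apart in the siTERT-labelled library, whose TERT was not lower, at a background of 0.282% higher and 0.2% lower. A count of 0 is near that background, and the list median was 0.09. The largest differences there were those of MAFF at 0.65, SQSTM1 at 0.33 and GSK3B, a kinase that marks NRF2 for degradation, at -0.27.

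Genes that make, use or turn over glutathione, apart from GCLC and GCLM, lay mostly below the control in the HKR3 library. Of 29 measured, 0 were at least 2-fold higher there and 3 were lower, CHAC1, GPX8 and GSTK1, against 5.52% and 2.52% of all measured genes. Of the 29, 7 lay above 0, and the median was -0.46. CHAC1, which degrades glutathione, was at 3.67 FPKM in the HKR3 library, 16.5 FPKM in the siTERT-labelled library and 22.4 FPKM in the control. GPX8, a peroxidase of the endoplasmic reticulum, had log2 differences of -1.20 in the HKR3 and -0.87 in the siTERT-labelled library. GSTK1, a glutathione transferase, was at 37.3 FPKM in the HKR3 library, 69.4 FPKM in the siTERT-labelled library and 75.7 FPKM in the control, and on the TPM scale its difference of -0.86 was short of 2-fold. GGCT, which acts on gamma-glutamyl peptides, was at -0.93 and the transferase GSTM4 at -0.92 in the HKR3 library. Set against the control, the siTERT-labelled library had 1 gene 2-fold higher, at a background of 0.282%. It was CBS, which condenses homocysteine with serine, at 1.22. The transferase GSTM3 was at 0.57, and the list median was -0.06. CBS shares 55.9% of its sequence with its copy CBSL, and their summed FPKM was 53.2 in the HKR3 library, 98.5 in the siTERT-labelled library and 106 in the control. On the sum, the log2 difference of the siTERT-labelled library was -0.10, so the higher CBS is uncertain.

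In the list of thioredoxin, peroxiredoxin and sestrin genes, 1 of 14 measured genes was at least 2-fold higher in the HKR3 library and none was 2-fold lower. With 5.52% of all measured genes higher and 2.52% lower, 1 and 0 of 14 are near the background. The median was -0.53, or -0.37 on the TPM scale. That gene was TXNIP, which binds and inhibits thioredoxin. It was at 71.1 FPKM in the HKR3 library, 11.7 FPKM in the siTERT-labelled library and 15.0 FPKM in the control, a log2 difference of 2.18 in the HKR3 and -0.33 in the siTERT-labelled library. PRDX2, PRDX1 and PRDX6, which reduce peroxides, had differences of -0.73, -0.67 and -0.63 in the HKR3 library. SESN2, a stress-induced regulator of growth signalling, had 0.67 in the HKR3 and 0.26 in the siTERT-labelled library. SESN3, of the same family, had -0.22 in the siTERT-labelled library. No gene of the list was 2-fold apart there, near the background of 0.282% higher and 0.2% lower, and the median was -0.13.

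SOD2, the mitochondrial superoxide dismutase and a known NF-kB target, was at 174 FPKM in the HKR3 library, 77.8 FPKM in the siTERT-labelled library and 62.3 FPKM in the control. Catalase, CAT, was at 40.5 FPKM in the HKR3 library, 75.9 FPKM in the siTERT-labelled library and 83.9 FPKM in the control, a log2 difference of -1.03 in the HKR3 library that became -0.89, short of 2-fold, on the TPM scale. SOD1, the cytosolic superoxide dismutase, had log2 differences of -0.38 in the HKR3 and -0.12 in the siTERT-labelled library. The 3 genes lay on both sides of the control in the HKR3 library, where their median was -0.38. Their median in the siTERT-labelled library was -0.12, and none was 2-fold apart there, near the background of 0.282% higher and 0.2% lower.

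Of 11 genes of heme and iron handling HMOX2 alone was 2-fold apart, lower in the HKR3 library. Of all measured genes 5.52% were higher and 2.52% lower there, and 0.282% and 0.2% in the siTERT-labelled library. The list medians were 0.04 for the HKR3 library and 0.01 for the siTERT-labelled library. SLC40A1, the iron exporter ferroportin, was at 108 FPKM in the HKR3 library, 66.1 FPKM in the siTERT-labelled library and 58.4 FPKM in the control. Its log2 difference in the HKR3 library was 0.88, and became 1.04 on the TPM scale. ABCB6, a porphyrin transporter, had 0.47, BLVRA, a biliverdin reductase, -0.48 and SLC48A1, a heme transporter, -0.49 in the HKR3 library. The largest in the siTERT-labelled library were TFRC, the transferrin receptor, at 0.45, SLC48A1 at -0.43 and BLVRB, another biliverdin reductase, at 0.33.

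Of 8 genes that supply NADPH, the reductant for thioredoxin and glutathione, 0 were 2-fold apart in either library. With 5.52% of all measured genes higher and 2.52% lower in the HKR3 library, and fewer in the siTERT-labelled one, a count of 0 among 8 is near the background. Their medians were -0.24 for the HKR3 library, or -0.10 on the TPM scale, and 0.11 for the siTERT-labelled library. In the HKR3 library PGD, an enzyme of the pentose phosphate pathway, was at 0.66 and the malic enzyme ME1 at 0.40. IDH1, the cytosolic isocitrate dehydrogenase, was at -0.84, and PGLS and TALDO1, of the pentose phosphate pathway, at -0.47 and -0.38. ME1 was at 0.27 and PGLS at 0.12 in the siTERT-labelled library.

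The list of other genes reported as NRF2 targets leaves out those placed in the other lists, so it does not cover every reported target. It included some of the largest differences of all the lists. Of 23 measured, 8 were at least 2-fold higher in the HKR3 library and 1 was lower, against 5.52% and 2.52% of all measured genes, with a median of 0.47. On the TPM scale 9 were higher and 0 lower, where 991 of all 10974 measured genes were higher and 208 lower. The lower one, named after its values were seen, was CBR1, a carbonyl reductase, at -1.01, or -0.87 on the TPM scale. Against the control, 4 of the 23 were 2-fold higher in the siTERT-labelled library and none lower, at a background of 0.282% higher and 0.2% lower, with a median of 0.44, though TERT was not lower there. The largest differences of the list were those of AKR1C2, AKR1B10 and AKR1C1, aldo-keto reductases that act on aldehydes and steroids. Other aldo-keto reductases of the list, named after their values were seen, were smaller or went the other way, with AKR1B1 at 0.54 and AKR1A1 at -0.50 in the HKR3 library, and 0.80 and -0.32 in the siTERT-labelled library. AKR1B10 was at 14.5 FPKM in the HKR3 library, 8.16 FPKM in the siTERT-labelled library and 1.42 FPKM in the control. The log2 differences of AKR1B10 were 2.68 in the HKR3 and 1.92 in the siTERT-labelled library. AKR1C2 and AKR1C1 had differences of 3.53 and 2.19 in the HKR3 library, and 1.91 and 1.29 in the siTERT-labelled library. AKR1C2 shares 47.3% of its sequence with AKR1C1, so the split between them is uncertain, and their sum was 98.3 FPKM in the HKR3 library, 42.4 FPKM in the siTERT-labelled library and 14.1 FPKM in the control. AKR1C3, named outside the rule after its values were seen, was the fourth gene higher in the library labelled siTERT, at 1.23 FPKM in the HKR3 library, 1.62 FPKM there and 0.255 FPKM in the control. Its log2 difference in the HKR3 library was 0.83, or 1.21 on the TPM scale. UGDH, which makes UDP-glucuronic acid, was at 229 FPKM in the HKR3 library, 113 FPKM in the siTERT-labelled library and 83.2 FPKM in the control. OSGIN1, an oxidative stress-induced growth inhibitor, was at 41.2 FPKM in the HKR3 library against 16.7 FPKM in the control, and its log2 difference in the siTERT-labelled library was 0.55.

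The list of cystine uptake and ATF4 targets was included because SLC7A11 is a target of ATF4 as well as of NRF2. Of its 11 genes, 2 were at least 2-fold higher and 3 lower in the HKR3 library, against 5.52% and 2.52% of all measured genes, and the median was 0.13. ATF3 and DDIT3, stress-induced transcription factors, had log2 differences of 3.60 and 1.95 there. CHAC1 had -2.33, the asparagine synthetase ASNS -1.74 and the amino acid transporter SLC7A5 -1.19. ASNS was 2-fold lower in the siTERT-labelled library as well, at -1.24, while ATF3 was at 0.67 and CHAC1 at -0.42 there, with a list median of -0.06. CHAC1 and SESN2 each stand in 2 of the lists.

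**Figure D4:**
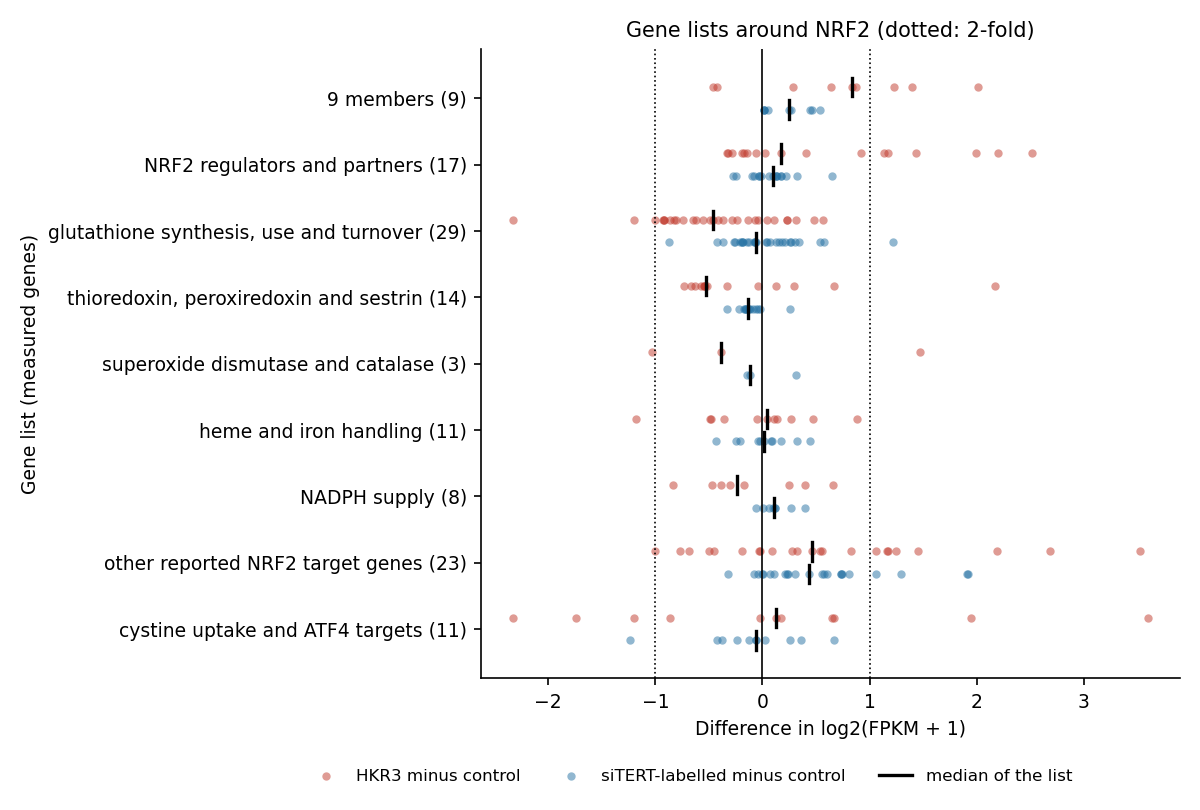
Difference in log2(FPKM + 1) from the control for the measured genes of each list, 1 point per gene, with black ticks at list medians and dotted lines at 2-fold. In the HKR3 library the 9 members have a median of 0.84, while the glutathione list has -0.46 and the thioredoxin list -0.53. These medians are not adjusted for level.

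GCLC had the largest difference of the 9 genes, and measured genes outside the 9 were ranked by how near their pair of log2 differences lay to its own, 2.01 in the HKR3 and 0.54 in the siTERT-labelled library. Over these 3 libraries the nearest were CREBRF at a distance of 0.10, ZMYM5 at 0.11, PCDH9 and TRIB1 at 0.12, and ZNF461 at 0.13 on the log2 scale. CREBRF was at 5.15 FPKM in the HKR3 library, 1.06 FPKM in the siTERT-labelled library and 0.523 FPKM in the control. TRIB1 was at 41.2 FPKM in the HKR3 library, 13.3 FPKM in the siTERT-labelled library and 9.68 FPKM in the control. CREBRF, PCDH9 and ZNF461 were below 1 FPKM in the control, where log2(FPKM + 1) understates differences. Their ratios of FPKM between the HKR3 library and the control were larger than that of GCLC. With 3 libraries, such likeness describes these values alone.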

How the data were processed

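The deposited table holds the authors' FPKM values, 1 for each gene in each library. Stranded TruSeq mRNA libraries were made from TRIzol RNA, per the labels' protocols. STAR 2.5.0, Cufflinks, Cuffdiff 2.2.1 and hg19 are named in the submitters' processing notes. Strand use in counting and scaling between libraries were not given in the sources used here. If strand was not used, reads of antisense genes, annotated for NFE2L2, GCLC, NQO1, TXNRD1 and SLC7A11 in GENCODE 29, cannot be told apart. Identifiers were named from a table of gene names for 19310 genes and from GENCODE 29 for 64, SOD2 among them, and 495 had no name.

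Groups came from titles. Differences in log2(FPKM + 1), with a pseudocount of 1 FPKM, were taken over the 10974 genes whose mean reached 1 FPKM, and 2-fold was the size rule. With 1 library per group no test was made. The number of fragments is not given, and an estimate was made from low genes, in which 1 fragment has a fixed worth in FPKM, taking genes with 1 transcript of at least 1000 bases. It was 1.07e+07 for the HKR3 library, 1.12e+07 for the library labelled siTERT and 1.02e+07 for the control. The estimate is the median of values within a fixed range, which limits what it could be. Of low genes in the HKR3 library, 60 of 118 lay within 25% of the value of 1 fragment. The siTERT-labelled library had 67 of 129 and the control 63 of 113, so the estimate is rough. Intervals used each gene's shortest annotated coding transcript, from 400 bases for TXNRD1 to 9645 bases for SLC7A11. This makes them wide only where longer transcripts were expressed, so widths cannot be compared between genes. Alternatives changed the pseudocount, scaling, filter and fold.

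The members and gene lists were chosen with earlier results of these data known. Named genes were the 9 members, ZBTB48 and TERT, per list the 5 largest differences in the HKR3 and the 3 in the siTERT comparison, and the 5 genes nearest to GCLC. TXN, SLC3A2, BACH1, CREBBP, AKR1A1, AKR1B1, AKR1C3 and CBR1 were added after values were seen, and 1 gene that the rule named is not reported here. The calculation was tested on simulated data. Python 3.11.15, numpy 2.4.6, pandas 2.3.3 and scipy 1.17.1 were used.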

Additional observations from a re-analysis of the deposited data

How the results depend on the processing

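The 3 members at least 2-fold higher in the HKR3 library were 3 or 4 under every pseudocount, scaling, filter and level setting tried, the 4th being NFE2L2 on the TPM scale or with the median at its level subtracted. At 1.5-fold 6 members were higher, as were 1674 of all 10974 measured genes. At 3-fold 1 member was higher, as were 168 of all measured genes. Against the library labelled siTERT the count of 1 became 3 on the TPM scale, where 701 genes were 2-fold higher in place of 451. The count of members was 6 at 1.5-fold (5 higher and, for SLC7A11, 1 lower) and 0 at 3-fold. All genes were not counted at those folds in this comparison, so these counts have no background to be read against. Between siTERT-labelled and control libraries it was 0 under every pseudocount, scaling, filter, level and fold setting tried. Over the 126 values of single members against the control under 7 settings, 124 kept their direction and their side of 2-fold, and the other 2 were those of NFE2L2. The filter settings could not change these values or the counts of members, since every member passed each filter. Counts over all genes depended on the setting. In the HKR3 library 883 genes were 2-fold apart, against 1362 with a pseudocount of 0.1 FPKM, 331 with 5 FPKM, 3068 at 1.5-fold and 193 at 3-fold. In the library labelled siTERT 53 genes were, against 160 and 13 with those pseudocounts, 22 with a mean of at least 5 FPKM, 322 at 1.5-fold and 16 at 3-fold. Of the list genes named, GSTK1, CAT and CBR1 were short of 2-fold on the TPM scale, and CREBBP, SLC40A1 and AKR1C3 passed it there. Low values limit AKR1C3, CREBRF, PCDH9 and ZNF461, whose control levels were below 1 FPKM. Reads of ABCB6 and ASNS, with 52.4% and 42.5% of their sequence also in other annotated genes, may have been split. No paired analysis was possible because each group held 1 library. The subtraction of the median at each gene's level was chosen after seeing the data.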
